A study of Rattus norvegicus with 12 samples.

Results

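Gene expression in the L6 dorsal root ganglia of old rats was compared with that of young rats when both were fed ad libitum. The 8 arrays of these groups were chosen by their labels out of the 12 arrays of the study. The rats were males of the inbred strain Fischer 344, and each array took the total RNA of 1 sample, with 4 rats per group in the design text. Rats of young_AL had reached 6 months on free access to food. Rats of old_AL had reached 25 to 28 months, also with free access to food. The remaining group, old_CR, matched old_AL in age but from an age of 6 weeks ate on only 3 days a week, a restriction of calories by about 40%, and enters here to estimate the spread between arrays and as a level set beside the others. The question, from the study's title, is which inflammatory and oxidative genes change with age in sensory ganglia that serve the bladder.

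Values are log2 of the processed spot intensity minus the 75th percentile of the same array, so that 0 is the level of a bright probe and a difference of 1 is 2-fold. The array old_AL 1 differed from all the rest in quality. A 75th percentile of 7662 was read there against 2634 to 3110 elsewhere, uneven spots numbered 4369 against 1 to 215, and the median of its correlations was 0.929 against 0.971 to 0.994. The main comparison therefore uses 11 arrays, 4 young and 3 old (old_AL 2, 3 and 4), and values that include old_AL 1 are called 12-array values. Of the 3 old arrays used, old_AL 4 had the least contrast between bright and dim probes: its 75th percentile was 34.5 times its 25th, against 60.5 to 72.8 on the other 10 of the 11 arrays, and its median level was -3.23 against -3.57 to -3.41. Slide 1 held the young arrays and slide 2 both old groups, so for every result below the effect of age and that of the slide cannot be told apart. The young and old_CR arrays lay in row 2 of their slides and the old_AL arrays in row 1. Age and row cannot be told apart either, and where old_AL differs from both other groups the row differs too. The tissue was checked against markers of sensory neurons, of which 13 of 17 were measured, all well above background on each of the 7 arrays compared. Uchl1, Tubb3, Prph and Stmn2 among them had young means from 5.31 to 7.04 and differences of 0.06 or less in size.

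A dorsal root ganglion holds the cell bodies of sensory neurons, each wrapped by satellite glial cells, together with myelinating and non-myelinating Schwann cells, blood vessels, connective tissue and resident macrophages. With age, macrophages, complement and other innate immune transcripts are known to accumulate in nervous tissue, while the synthesis of membrane lipids and of matrix proteins by glia tends to decline after development. In RNA from a whole ganglion, more cells of a type and more RNA per cell cannot be told apart.

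Of 20849 genes tested with limma on 11 arrays, 676 passed an adjusted p of 0.05 (3.24%), of which 416 were higher in old ganglia (2%) and 260 were lower (1.25%). The arrays of the 2 groups did not overlap for any of the 676, but over all genes 11.9% had every old array above every young one and 7.67% had every old array below. Of the 676 differences, 217 were under 0.25 in size. Over 2-fold, 76 genes rose (0.365%) and 5 fell (0.024%), and 45 of these 81 had a gene symbol. Most large rises were of dim genes: 41 of the 76 had a young level under -6, where 2395 genes were tested, and none had a young level above 0. The median difference was 0.389 for genes with a young level under -6, 0.174 from -6 to -4, and 0.052, -0.004, -0.027 and 0.003 in the ranges from -4 to -2, -2 to 0, 0 to 2 and above 2. The 10th percentile of the level was -9.24, -8.84 and -7.72 on old_AL 2 to 4, against -9.50 to -9.33 on the young arrays. The array old_AL 4 was more than 2-fold above all the other 10 arrays for 965 genes, of which 3 passed, while young_AL 4 was more than 2-fold below all the others for 326 genes, of which none passed. Each of the other 9 arrays stood 2-fold above all the rest for 76 genes or fewer and below them for 16 or fewer.

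**Figure D1:**
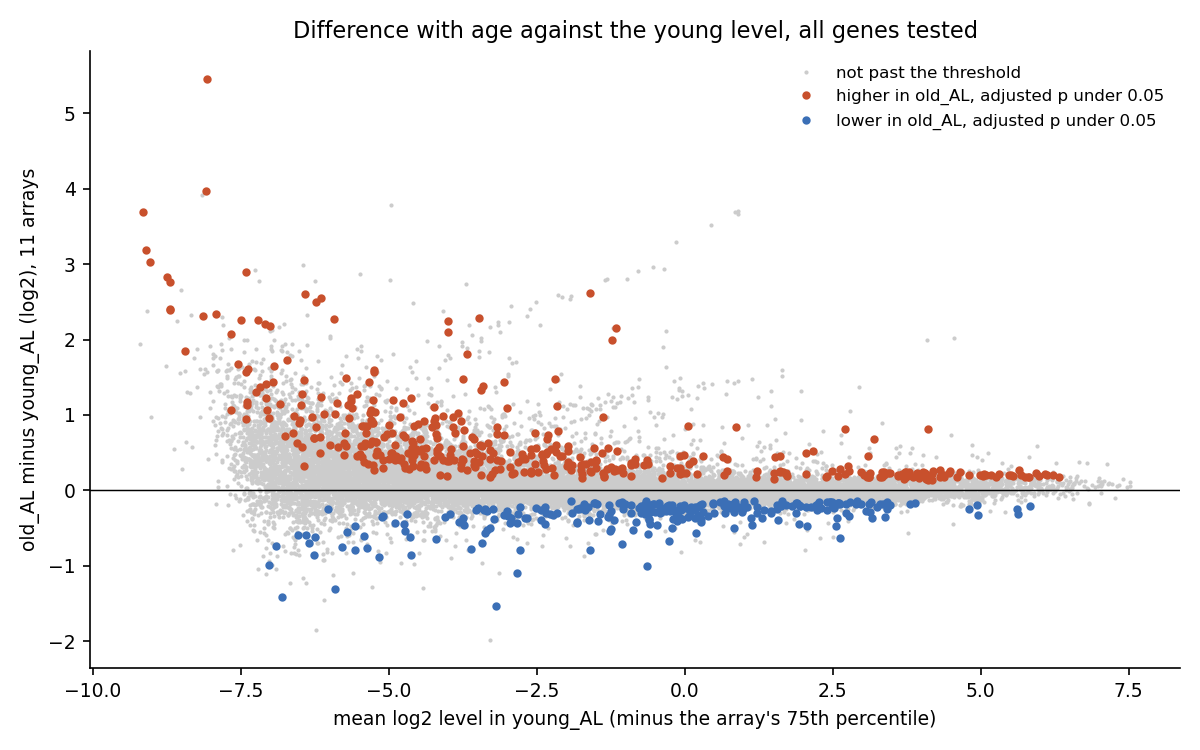
Difference between old and young ganglia (log2, y axis) against the young level (log2 relative to the 75th percentile of the array, x axis) for 20849 genes on 11 arrays, with the 416 genes that rose and the 260 that fell coloured. Of the 76 rises over 2-fold, 41 sit left of -6, and all but 5 of the falls lie under 1 in size.

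The counts depended on which arrays were kept. With old_AL 1 included, 4 of 20942 genes passed (0.0191%), 2 in each direction (0.00955% each), and 1405 had an unadjusted p under 0.05 against 4820 without it. The median residual SD of a gene was 0.363 with that array and 0.102 without it. With the replicate number, which in each group is also the column of the array on its slide, as a block, 20 genes passed. All 81 genes over 2-fold kept their direction on 12 arrays, as did 536 of all 676. The 12-array difference still contains old_AL 2 to 4, so a kept direction does not show that old_AL 1 went the same way. Tbc1d10c read -8.43 on old_AL 1 against -5.60 to -4.95 in young ganglia, yet kept its direction at 0.012. Gpnmb at 0.01 was above every young array there. Leaving out any further array lowered the 676 calls: to 70 without young_AL 2, 89 without young_AL 3, 391 and 306 without young_AL 1 and 4, 345 to 402 without 1 of the old_AL arrays and 247 to 393 without 1 of the old_CR arrays. In all, 61 genes passed in each of these 11 leave-outs, 36 that rose and 25 that fell. With the spread taken from the 7 compared arrays alone, without old_CR, 25 genes passed and 24 of them were among the 676. Of 113 genes singled out for description that passed on 11 arrays, 3 also passed on 12. The others did not, with a difference over 1.5 times smaller for 32 of the 113, over 1.5 times larger for 12 and of opposite sign for 13. The 12-array difference is given beside those of them that are described. Genes described in full are given with the number of the 11 leave-outs in which they passed, and a gene that failed any did so most often without young_AL 2 or young_AL 3.

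The balance of rises and falls depended on how arrays were scaled. Of the genes that passed, 61.5% were higher in old ganglia after scaling to the 75th percentile. That share was 22.9% of 1067 after quantile normalization, 13.1% of 2968 after median centring and 86.3% of 3826 after normexp background correction. The median difference of all genes moved from 0.035 to -0.051, -0.067 and 0.072 with those choices. Over 2-fold, 77 genes passed after quantile normalization with 37 of them higher, 131 after median centring with 118 higher, and 57 after normexp with 55 higher, against 76 higher of 81. Of the 676 genes, 653 kept their sign under all 3 alternatives (402 that rose and 251 that fell), and so did all 81 over 2-fold. Median centring differs from the 75th percentile by a constant for each array, which moves all differences by nearly the same amount. A difference over 1 could therefore not change sign under it. Of the 113 genes singled out, quantile normalization lost the call of 30, median centring of 9 and normexp of 7, and the adjusted p is given beside those described. Normexp gave differences over 1.5 times smaller for 28 of them, among them the dim genes ENSRNOT00000042670 at 0.83, Adam34 at 0.62, Mageb4 at 0.77, Ngp at 0.89 and Tmem273 at 0.62. Of the 58 gene lists, 39 had a median above 0 with 75th percentile scaling. That number was 42 with normexp, 28 with median centring, 27 with quantile normalization and 33 on 12 arrays. The 12-array median stands beside a printed list median where it differs by over 1.5 times or in sign.

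**Figure D2:**
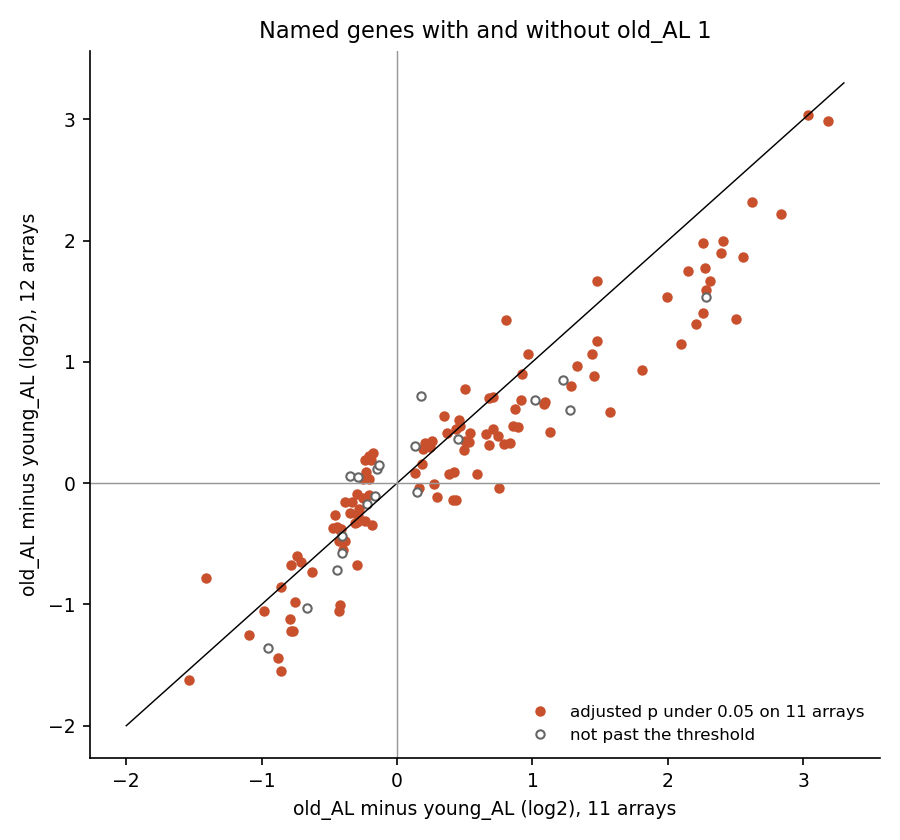
Differences of the named genes (log2, old minus young) with all 12 arrays (y axis) against the 11 arrays without old_AL 1 (x axis), with a line of equality. The genes over 2-fold keep their sign on both axes, and 18 named genes change sign.

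Among the genes with a symbol, the largest rises included 2 pairs of genes of one family or function that lie on the same chromosome, whose upstream sequences are shown here because both genes of a pair rose. Reg3a and Reg3b are secreted C-type lectins that are induced in sensory neurons after nerve injury, and their start sites are 10.6 kb apart on chromosome 4. Camp, the precursor of the antimicrobial peptide cathelicidin, and Ngp, a neutrophil granule protein, are stored in neutrophil granules, and their start sites are 551 kb apart on chromosome 8. Serpina3n, shown as a further large rise, is a secreted inhibitor of serine proteases that rises in many tissues in the acute phase response. The 250 bases before each RefSeq start in the assembly GRCr8 were searched on both strands for TTCNNNGAA, the core of sites bound by STAT factors, and TTGCNNAA, the core of sites bound by C/EBP factors. Capitals mark matches, and the sequence of Camp held neither.
Reg3a (chr4:112430147-112430396, plus strand): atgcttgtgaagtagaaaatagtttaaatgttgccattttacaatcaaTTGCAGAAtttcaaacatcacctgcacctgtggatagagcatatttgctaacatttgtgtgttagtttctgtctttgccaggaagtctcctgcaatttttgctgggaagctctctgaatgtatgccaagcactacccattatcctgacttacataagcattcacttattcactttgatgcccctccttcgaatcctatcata
Reg3b (chr4:112419526-112419775, plus strand): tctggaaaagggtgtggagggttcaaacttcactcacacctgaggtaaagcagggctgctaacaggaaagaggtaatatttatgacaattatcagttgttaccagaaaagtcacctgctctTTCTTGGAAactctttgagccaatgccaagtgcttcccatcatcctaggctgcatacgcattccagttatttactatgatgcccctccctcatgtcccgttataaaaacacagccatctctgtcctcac
Camp (chr8:118721999-118722248, minus strand): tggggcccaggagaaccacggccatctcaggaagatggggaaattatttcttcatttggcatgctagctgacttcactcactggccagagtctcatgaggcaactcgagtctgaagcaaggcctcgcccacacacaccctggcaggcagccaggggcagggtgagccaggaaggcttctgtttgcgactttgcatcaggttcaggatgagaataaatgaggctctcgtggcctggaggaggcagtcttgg
Ngp (chr8:119272355-119272604, plus strand): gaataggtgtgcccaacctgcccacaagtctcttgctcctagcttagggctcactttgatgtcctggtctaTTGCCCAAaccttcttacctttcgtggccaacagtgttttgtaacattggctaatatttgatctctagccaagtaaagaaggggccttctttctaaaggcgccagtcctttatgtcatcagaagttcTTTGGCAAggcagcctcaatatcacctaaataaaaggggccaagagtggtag
Serpina3n (chr6:129088142-129088391, plus strand): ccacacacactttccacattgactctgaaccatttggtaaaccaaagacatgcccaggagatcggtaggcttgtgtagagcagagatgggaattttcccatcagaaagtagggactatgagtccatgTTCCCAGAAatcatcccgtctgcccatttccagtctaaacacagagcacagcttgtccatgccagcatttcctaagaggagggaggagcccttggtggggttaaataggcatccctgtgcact
The TTCNNNGAA core lay 129 bases before the start of Reg3b and 123 before that of Serpina3n, and 7.67% of 33469 windows of this length held it. The TTGCNNAA core lay 202 bases before the start of Reg3a and 179 and 52 bases before that of Ngp, and 9.22% of the windows held it. Where RefSeq lists 2 starts, as for Reg3a, the upstream one was used. These matches are descriptions of the letters and were not tested against the expression values.

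Reg3a read -2.03, -1.54, -1.26 and -1.56 on the young arrays and 1.69, 0.09 and 1.29 on old_AL 2 to 4, with -0.20 on old_AL 1. All 4 old arrays lay above all 4 young ones. The difference was 2.62 ± 0.37 (SE, adjusted p = 0.0149, 10 of 11 leave-outs) and 2.32 on 12 arrays (adjusted p = 0.148). Reg3b read from -1.37 to -0.93 in young ganglia and 1.875, 0.087 and 1.003 on old_AL 2 to 4, with -0.61 on old_AL 1, so here too no array of the groups overlapped. It rose by 2.15 ± 0.41 (adjusted p = 0.0326, 3 of 11 leave-outs) and by 1.75 on 12 arrays without passing. On the same slide as old_AL but in the other row, the old_CR arrays read -0.66 to 0.19 for Reg3a and -0.69 to 0.52 for Reg3b. They lay above the young arrays and overlapped the lowest of old_AL.

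Camp read -3.645, -3.83, -3.27 and -3.18 in young ganglia and -1.19, -1.02 and -1.37 on old_AL 2 to 4, but -3.97 on old_AL 1, below every young array. It rose by 2.28 ± 0.20 (adjusted p = 0.00332, 11 of 11 leave-outs), and it also passed when the 7 compared arrays were fitted alone (adjusted p = 0.0266). Ngp read -7.86 to -6.51 in young ganglia, well above background on 2 of 4 arrays, and -5.18 to -4.74 on old_AL 2 to 4. Its rise was 2.26 ± 0.32 (adjusted p = 0.0149, 11 of 11 leave-outs), and old_AL 1 again read low at -8.37. With old_AL 1 kept, the differences were 1.59 for Camp and 1.40 for Ngp and neither passed. Serpina3n read -4.27 to -3.50 in young ganglia and -0.81, -1.81 and -3.09 on old_AL 2 to 4, a wide spread, and -5.71 on old_AL 1. It rose by 2.10 ± 0.46 (adjusted p = 0.0476, 1.145 on 12 arrays, adjusted p = 0.0537 after quantile normalization) and passed in 1 of 11 leave-outs.

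**Figure D3:**
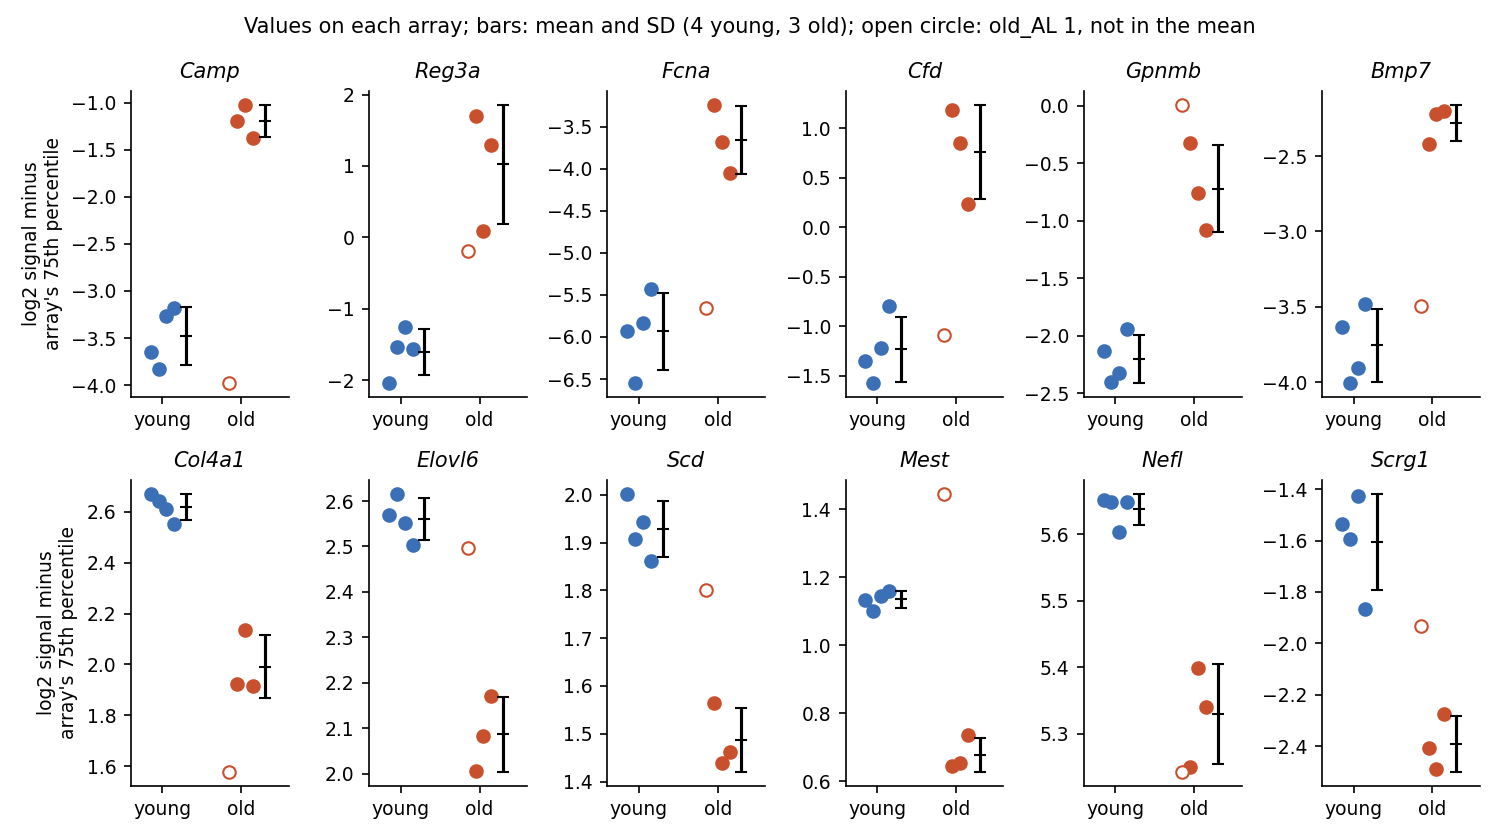
Level of 12 genes on each array (log2 relative to the 75th percentile of the array, y axis) for young_AL and old_AL, with old_AL 1 drawn as an open circle and bars for the mean and SD of the 4 young and the 3 other old arrays. The 6 genes of the upper row rose and the 6 of the lower row fell, and old_AL 1 lies apart from its group for Camp and Mest among others.

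Markers of macrophages, the resident phagocytes of the ganglion, were higher in old ganglia for 32 of 34 measured genes, against 59.2% of all genes tested, with a median difference of 0.762 against 0.035 over all genes. The median over all dim genes was higher too, at 0.389 under a young level of -6 and 0.174 from -6 to -4. No immune or blood cell list here was set against genes of like level, so the part of that shift in their medians was not tested. A dim gene could also enter through the old groups alone, so part of the counts of higher genes in these lists can be built in. Of the listed genes, 34 of 44 macrophage, 13 of 29 cytotoxic, 16 of 28 neutrophil, 10 of 25 B and plasma cell and 12 of 18 mast cell genes were measured. Of the 34 macrophage genes, 6 rose and none fell, with Gpnmb, Lyve1, Cd163, Mrc1 and Tyrobp among the rises. Over all genes 2% rose, 1.25% fell and 59.2% were higher, and the counts of every list below stand against these shares. Gpnmb, a glycoprotein of lipid-laden and phagocytic macrophages, read -2.131, -2.405, -2.321 and -1.941 in young ganglia and -0.32, -0.76 and -1.08 on old_AL 2 to 4, with 0.01 on old_AL 1. Every old array was above every young one. It rose by 1.48 ± 0.19 (adjusted p = 0.0133, 11 of 11 leave-outs), and with old_AL 1 kept the difference was 1.66 (adjusted p = 0.0538). The old_CR arrays lay between -1.22 and -0.77 for it. Lyve1, the hyaluronan receptor of lymphatic vessels and of perivascular macrophages, read -3.18 to -2.85 in young ganglia and -2.19 to -1.71 on old_AL 2 to 4, with -3.64 on old_AL 1. It rose by 1.09 ± 0.15 (adjusted p = 0.0135, 11 of 11 leave-outs, 0.655 on 12 arrays).

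The scavenger receptors of the same cells passed in few of the leave-outs. Cd163, which takes up haemoglobin bound to haptoglobin, read -4.18, -4.03, -3.71 and -2.83 in young ganglia and -1.21, -1.99 and -2.44 on old_AL 2 to 4, with -5.39 on old_AL 1. It rose by 1.81 ± 0.35 (adjusted p = 0.0336, 2 of 11 leave-outs, 0.93 on 12 arrays). Mrc1, the mannose receptor, rose by 1.13 ± 0.23 (adjusted p = 0.0377, 2 of 11 leave-outs, 0.42 on 12 arrays, 0.72 with adjusted p = 0.188 after quantile normalization), and it stayed between -6.24 and -5.11 on the young arrays. Among members that did not pass, differences ran from -0.13 for Maf to 1.70 for Cd68, where young_AL 4 at -5.46 lay far below the other young arrays at -2.34 to -1.70. The list's median over members, relative to the young mean, was 0.83, 0.87 and 0.45 on old_AL 2 to 4, -0.26 on old_AL 1, and -0.36 to 0.23 on the young arrays. Over all genes the same median was -0.57 on old_AL 1. The old_CR arrays gave 0.05 to 0.60.

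Receptors for the constant part of antibodies, which macrophages carry, were higher for all 8 measured genes, a median of 0.619, and 3 rises. Fcgr2a rose by 0.24 ± 0.04 (adjusted p = 0.0288, 6 of 11 leave-outs, 0.14 with adjusted p = 0.0702 after median centring), from 1.577 to 1.685 in young ganglia to 1.880 to 1.912 on old_AL 2 to 4. Fcgr2b, the inhibitory receptor, rose by 1.33 ± 0.25 (adjusted p = 0.0326, 5 of 11 leave-outs). A second probe of Fcgr2b gave 0.88. Fcrl2 rose by 1.44 ± 0.31 (adjusted p = 0.0457, 1 of 11 leave-outs). Cd300a, an inhibitory receptor of myeloid cells, rose by 0.84 ± 0.10 (adjusted p = 0.00983, 11 of 11 leave-outs, 0.33 on 12 arrays), from between -4.38 and -4.23 in young ganglia to between -3.51 and -3.38 on old_AL 2 to 4, and read -5.46 on old_AL 1.

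Complement, the plasma protein cascade that tags debris and synapses for removal, was higher for 12 of 13 measured genes of the classical and lectin pathways, with a median of 0.808 and 2 rises. Fcna, a ficolin that starts the lectin pathway, read -5.93, -6.54, -5.84 and -5.43 in young ganglia and -3.24, -3.68 and -4.05 on old_AL 2 to 4, with -5.66 on old_AL 1. The 3 old arrays were above all young ones, and old_AL 1 lay among the young. It rose by 2.28 ± 0.25 (adjusted p = 0.00745, 11 of 11 leave-outs) and by 1.78 on 12 arrays without passing. Serping1, the inhibitor of the first complement proteases, rose by 0.81 ± 0.18 (adjusted p = 0.0492, 2 of 11 leave-outs, 1.345 on 12 arrays), from 2.39 to 3.04 in young ganglia to 3.39 to 3.58, and was highest on old_AL 1 at 5.66. The recognition subunits C1qa, C1qb and C1qc had differences of 1.08, 0.48 and 0.92 and did not pass.

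In the alternative and terminal pathways, 14 of 17 genes were higher, with a median of 0.312 and 2 rises. Cfd, or adipsin, the protease that starts the alternative pathway and a product of fat cells, read -1.35, -1.57, -1.22 and -0.80 in young ganglia and 1.185, 0.856 and 0.240 on old_AL 2 to 4, with -1.086 on old_AL 1. The 3 old arrays did not overlap the young, whereas old_AL 1 did. It rose by 1.995 ± 0.22 (adjusted p = 0.0081, 11 of 11 leave-outs) and by 1.53 on 12 arrays without passing. Cfd is also in the list of fat cell genes, where it was the only one of 17 that passed and the list's median was 0.208 (-0.073 on 12 arrays). The defining fat cell genes Adipoq and Fabp4 differed by 1.94 and 1.44 without passing, and the part of fat tissue in the rise of Cfd was not tested. Cd55, which protects a cell's own surface from complement, rose by 0.44 ± 0.08 (adjusted p = 0.032, 4 of 11 leave-outs).

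Antigen presentation by MHC class II was higher for all 13 measured genes, with a median of 0.621, yet none passed. Ctss, a lysosomal protease that trims the class II invariant chain, had the smallest p of that list, with a difference of 1.02 ± 0.27 (adjusted p = 0.072). MHC class I had a median of 0.2 over 24 genes, 21 of them higher, and none passed, but on 12 arrays the median was 0.004 with 12 of 24 higher. Its member B2m read 4.15 to 4.19 on the young arrays and 4.27 to 4.40 on old_AL 2 to 4, with 6.50 on old_AL 1, and the difference of 0.18 did not pass (adjusted p = 0.0736).

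T cell genes were higher for 22 of 23, with a median of 0.787 and 3 rises. Cd8a, the coreceptor of cytotoxic T cells, read -7.34 to -6.93 in young ganglia and -3.93, -5.39 and -5.31 on old_AL 2 to 4, with -8.46 on old_AL 1. It rose by 2.21 ± 0.34 (adjusted p = 0.0195, 9 of 11 leave-outs, 1.31 on 12 arrays, adjusted p = 0.0658 after quantile normalization), and on old_CR it lay between -6.58 and -5.75. Ptprcap, a partner of the phosphatase CD45, rose by 1.28 ± 0.29 (adjusted p = 0.0494, 0.80 on 12 arrays, adjusted p = 0.0729 after quantile normalization) and Cd6, a receptor on T cells, by 0.79 ± 0.18 (adjusted p = 0.0495, 0.32 on 12 arrays), each in 1 of 11 leave-outs. Other probes of Cd6 gave 0.95 and 0.13.

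Cytotoxic and natural killer genes had a median of 1.465, with all 13 genes that were measured, of 29 listed, higher and none called. The arrays were uneven: the list's median relative to the young mean was 2.72 on old_AL 2, 0.74 on old_AL 3 and 0.58 on old_AL 4. The median difference was 0.83 on 12 arrays and 0.594 without old_AL 2. Ctsw, a protease of cytotoxic cells and the member with the smallest p, differed by 2.285 ± 0.579 (adjusted p = 0.0651), reading -8.38 to -6.66 in young ganglia and -5.88, -5.47 and -3.49 on old_AL 2 to 4. Of 10 B and plasma cell genes, Blnk, an adaptor of the B cell receptor, rose by 0.50 ± 0.10 (adjusted p = 0.0358, 4 of 11 leave-outs, 0.27 on 12 arrays, 0.20 with adjusted p = 0.222 after quantile normalization).

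Mast cell genes had a median of 1.081 (0.385 on 12 arrays) over 12 genes, of which 1 passed. Mcpt10, a protease of mast cell granules, read -6.14, -7.00, -6.63 and -5.17 in young ganglia and -3.33, -3.67 and -4.20 on old_AL 2 to 4, with -8.33 on old_AL 1. It rose by 2.50 ± 0.54 (adjusted p = 0.0456, 2 of 11 leave-outs, 1.35 on 12 arrays, adjusted p = 0.0591 after quantile normalization). On old_CR it read -5.23 to -3.28, overlapping both groups. Mcpt8l2, a related protease outside the list, was well above background on no young array and on 3 old ones, at least 4.32-fold higher (adjusted p = 0.0356, 3 of 11 leave-outs, but 0.141 after quantile normalization). After normexp its difference was only 0.42. It entered the test only through the old groups, where it is high, so its p is given as a description.

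Camp and Ngp belong to a list of 16 neutrophil and marrow genes, all higher in old ganglia, with a median of 0.805 and 3 rises. The rise besides these was of Padi4, the enzyme that citrullinates histones in neutrophils, at 0.68 ± 0.12 (adjusted p = 0.0257, 8 of 11 leave-outs, 0.43 with adjusted p = 0.121 after quantile normalization). Genes of the red cell lineage were higher in old ganglia for 17 of 19, with a median of 0.784 (0.470 on 12 arrays), and 4 rose. Klf1, the transcription factor of erythroid cells, rose by 0.86 ± 0.17 (adjusted p = 0.0388, 2 of 11 leave-outs, 0.47 on 12 arrays), Car1 by 0.76 ± 0.14 (adjusted p = 0.0288, 6 of 11 leave-outs, adjusted p = 0.0586 after quantile normalization), Epor by 0.87 ± 0.20 and Fech by 0.27 ± 0.06. After quantile normalization Epor and Fech did not pass (adjusted p = 0.123 and 0.0734), nor did Fech after median centring (adjusted p = 0.121). On 12 arrays the differences of Car1 and Fech were -0.04 and -0.01. The erythroid list's median was highest on old_AL 2, at 1.21, with 0.32 and 0.47 on old_AL 3 and 4 and -0.14 to 0.30 on the young arrays. The neutrophil list's median was 1.40, 1.26 and 0.30 on old_AL 2 to 4 against -0.38 to 0.25 on the young arrays. The bone and cartilage list had a median of 0.242 (0.076 on 12 arrays and -0.029 after quantile normalization) over 13 genes and 1 rise, Ibsp, a bone matrix protein, at 0.59 ± 0.09 (adjusted p = 0.0193, 0.08 on 12 arrays, 0.17 with adjusted p = 0.616 after quantile normalization). The part that blood or marrow left in the dissected ganglia has in these rises was not tested.

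**Figure D4:**
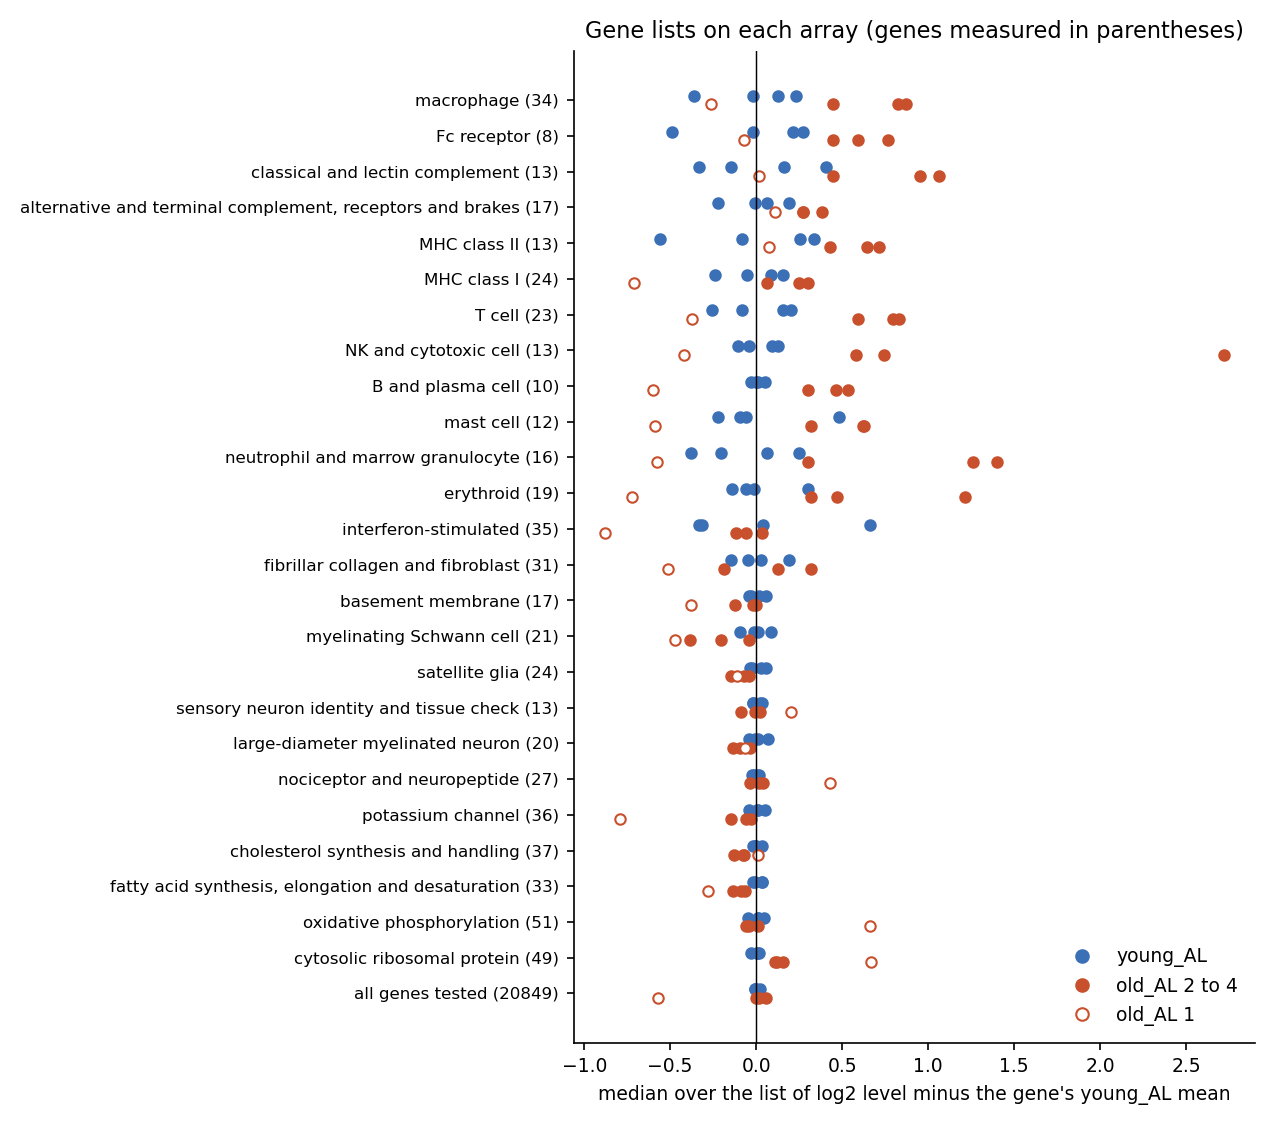
Median over the members of each of 25 gene lists and over all genes (rows) on each young_AL and old_AL array, relative to the young mean (log2, x axis), with old_AL 1 as an open circle. The macrophage, cytotoxic, neutrophil and erythroid lists lie above 0 on old_AL 2, 3 and 4 and below 0 on old_AL 1, and the cytotoxic list reaches 2.72 on old_AL 2. On old_AL 1 these lists are at -0.26, -0.42, -0.58 and -0.72, where the median of all genes is -0.57.

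None of 37 chemokines and their receptors passed, against 3.24% of all genes, and the median was 0.342. Cxcr4, the receptor with the smallest p there, gave -0.405 ± 0.106 (adjusted p = 0.0694). Of 35 cytokine genes, none rose and Tgfb3, a transforming growth factor, fell by 0.40 ± 0.09 (adjusted p = 0.0488, 0 of 11 leave-outs), and the list's median was 0.135 (-0.081 on 12 arrays). Of 25 genes of NF-kB and innate sensing, Ptgs1 alone rose, and the median was 0.180 (0.079 on 12 arrays). Ptgs1, the constitutive cyclooxygenase, rose by 0.38 ± 0.06 (adjusted p = 0.0203, 9 of 11 leave-outs, 0.075 on 12 arrays), from -1.63 to -1.42 in young ganglia to -1.19 to -1.02 on old_AL 2 to 4, but -2.36 on old_AL 1, below every young array. A second probe of Ptgs1 gave 0.32 (adjusted p = 0.667). Ptgs1 is also a member of the prostaglandin list, in which the receptor Ptger4 was the other of 24 genes that rose, by 0.30 ± 0.07 (adjusted p = 0.0494, 1 of 11 leave-outs, 0.20 with adjusted p = 0.0652 after median centring), with a difference of -0.12 on 12 arrays and -0.08 after quantile normalization. Genes induced by interferon had a median of -0.021 (-0.260 on 12 arrays) over 35 genes and none passed. That list was highest on 1 young array: its median relative to the young mean was 0.66 on young_AL 1, -0.34 to 0.04 on the other young arrays and -0.12 to 0.03 on old_AL 2 to 4.

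Among genes of oxidative stress, the 11 subunits and regulators of NADPH oxidases had a median of 0.453 (0.224 on 12 arrays) and none passed. Their median was 0.56, 0.46 and 0.23 on old_AL 2 to 4 and -0.08 to 0.09 on the young arrays. Of 54 antioxidant genes, 3 rose, none fell, and the median was 0.031 (0.050 on 12 arrays), next to 0.035 over all genes. Hmox1, which degrades haem, rose by 0.46 ± 0.09 (adjusted p = 0.0336, 2 of 11 leave-outs), from -2.15 to -2.03 in young ganglia to -1.370, -1.698 and -1.805 on old_AL 2 to 4. Mgst2, a microsomal glutathione transferase, rose by 0.54 ± 0.12 (adjusted p = 0.0482, adjusted p = 0.0616 after quantile normalization) and Ftl1, the light chain of the iron store ferritin, by 0.18 ± 0.04 (adjusted p = 0.0413, 0.10 with adjusted p = 0.105 after quantile normalization, 0.08 with adjusted p = 0.168 after median centring). Each passed in 1 of 11 leave-outs. Superoxide dismutases, catalase and peroxiredoxins did not pass, with differences from -0.13 for Prdx3 to 0.21 for Prdx1. The 51 genes of the respiratory chain ranged from -0.13 for Cycs to 0.08 for Cox6a1, and none passed. Their median turned with old_AL 1, from -0.034 with 14 of 51 above 0 to 0.166 on 12 arrays with 41 above 0.

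Secreted growth regulators held 2 rises that passed in every leave-out, Bmp7 and Cthrc1. Bmp7, a bone morphogenetic protein that acts on glia and vessels, read -3.633, -4.004, -3.905 and -3.481 in young ganglia and -2.42, -2.22 and -2.20 on old_AL 2 to 4. The 3 old arrays lay above all young ones, and old_AL 1 at -3.50 lay among the young. Bmp7 rose by 1.48 ± 0.16 (adjusted p = 0.00705, 11 of 11 leave-outs; 1.17 on 12 arrays) and passed in the compared groups alone (adjusted p = 0.033). The old_CR arrays read -3.34 to -2.74, above every young array and below old_AL 2 to 4. Frzb, a secreted inhibitor of Wnt ligands, read -1.74 to -1.16 in young ganglia and -0.68, -0.28 and -0.26 on old_AL 2 to 4, with -0.01 on old_AL 1. It rose by 0.97 ± 0.14 (adjusted p = 0.0177, 10 of 11 leave-outs), and the 12-array difference was 1.07 (adjusted p = 0.0869). Cthrc1, a secreted protein of injured matrix, rose by 0.92 ± 0.13 (adjusted p = 0.0139, 11 of 11 leave-outs), with 0.90 on 12 arrays (adjusted p = 0.0614). Nrg1, the neuronal growth factor for Schwann cells, fell by 0.24 ± 0.04 (adjusted p = 0.027, 6 of 11 leave-outs). These were the 3 rises and 1 fall among 38 growth factor genes, whose median was 0.122 (0.026 on 12 arrays and -0.063 after quantile normalization).

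Matrix genes went both ways. Col4a1, a chain of the network collagen of basement membranes, read 2.67, 2.64, 2.61 and 2.55 in young ganglia and 1.92, 2.13 and 1.92 on old_AL 2 to 4, with 1.58 on old_AL 1. All 4 old arrays were below all young ones. It fell by 0.63 ± 0.08 (adjusted p = 0.0133, 11 of 11 leave-outs) and by 0.73 on 12 arrays (adjusted p = 0.148). A second, dimmer probe of Col4a1 gave -0.32 and did not pass. The old_CR arrays read 1.87 to 2.20. Agrn, a heparan sulfate proteoglycan of the same membranes, fell by 0.18 ± 0.04 (adjusted p = 0.0387, 1 of 11 leave-outs), but a second probe gave -0.03 and the 12-array difference was 0.25. The 17 basement membrane genes had a median of -0.078, with these 2 falls.

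Of 31 fibrillar matrix genes, 2 rose and 1 fell, against 2% and 1.25% of all genes, with a median of 0.205 (0.049 on 12 arrays). Postn, or periostin, read -5.95 to -4.73 in young ganglia and -3.39, -3.87 and -3.77 on old_AL 2 to 4, with -7.60 on old_AL 1, and rose by 1.57 ± 0.27 (adjusted p = 0.0257, 10 of 11 leave-outs, 0.59 on 12 arrays). Its old_CR arrays read -5.44 to -4.85, within the young range. Thbs2, a matricellular thrombospondin, rose by 0.75 ± 0.14 (adjusted p = 0.0318, 5 of 11 leave-outs, 0.39 on 12 arrays). Tnc, or tenascin C, fell by 0.79 ± 0.18 (adjusted p = 0.0494, 1 of 11 leave-outs), from between -3.24 and -2.56 to between -3.73 and -3.49. The major fibrillar collagens Col1a1, Col1a2 and Col3a1 were lower by values from 0.45 to 0.61 in size and did not pass. Among 27 proteases and inhibitors, Serpina3n and the metalloprotease Mmp23 rose, the latter by 0.68 ± 0.14 (adjusted p = 0.0374, 3 of 11 leave-outs, 0.31 on 12 arrays), and the median was 0.013 (0.189 on 12 arrays). Vessel genes held 2 rises and 1 fall of 29, against 2% and 1.25% of all genes. Mfsd2a, the lipid transporter of the blood-nerve barrier, was down by 0.30 ± 0.04 (adjusted p = 0.0133, 11 of 11 leave-outs, -0.67 on 12 arrays), and Ly6c and Lyve1 were up. Ly6c did not pass after quantile normalization (adjusted p = 0.146). Of 21 genes of pericytes and smooth muscle, Des alone rose, by 0.41 ± 0.09 (adjusted p = 0.0421, 2 of 11 leave-outs, adjusted p = 0.0767 after quantile normalization), and its 12-array difference was -0.14.

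Among genes of large myelinated neurons, 5 of the 20 measured fell and none rose, against 1.25% and 2% of all genes, with a median of -0.108. Nefl, the light neurofilament chain that sets axon calibre, read 5.651, 5.648, 5.603 and 5.649 in young ganglia and 5.25, 5.40 and 5.34 on old_AL 2 to 4, with 5.24 on old_AL 1, so all old arrays were below all young ones. It fell by 0.31 ± 0.04 (adjusted p = 0.0133, 11 of 11 leave-outs) and by 0.33 on 12 arrays without passing. Nefh, the heavy chain, fell by 0.25 ± 0.05 (adjusted p = 0.0359, 1 of 11 leave-outs, -0.13 on 12 arrays) and Ina, another intermediate filament, by 0.21 ± 0.04 (adjusted p = 0.0391, 1 of 11 leave-outs, -0.10 on 12 arrays). The calcium-binding proteins of proprioceptors and other large neurons fell too: Calb1 by 0.43 ± 0.08 (adjusted p = 0.0328, -1.05 on 12 arrays, -0.08 with adjusted p = 0.439 after normexp) and Pvalb by 0.23 ± 0.04 (adjusted p = 0.0324), each in 4 of 11 leave-outs. Pvalb is also a gene of fast muscle. The 19 skeletal muscle genes, of which Pvalb alone passed, had a median of 0.017 (-0.249 on 12 arrays) and were highest on young_AL 2, at 0.95 relative to the young mean against -0.40 to -0.09 on the other young arrays, while Pvalb read 2.29 on young_AL 2 and 2.26 to 2.36 on the others. Its 12-array difference was 0.09.

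General neuronal genes had a median of -0.028 (0.054 on 12 arrays) over 23 genes and 2 falls. One was Ina, and the other Vamp1, a synaptic vesicle protein of motor and large sensory neurons, which fell by 0.25 ± 0.04 (adjusted p = 0.0271, 6 of 11 leave-outs) but differed by 0.04 on 12 arrays. Isl1, a homeodomain factor of sensory neurons, fell by 0.19 ± 0.04 (adjusted p = 0.048, -0.35 on 12 arrays) and passed in 0 of 11 leave-outs. It was the only one of 13 identity genes that passed.

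Of 27 nociceptor genes, 1 rose and 1 fell, against 2% and 1.25% of all genes, and the median was -0.008 (0.137 on 12 arrays). Trpa1, the channel for irritants, read -2.94 to -2.59 in young ganglia and -2.36, -2.35 and -2.14 on old_AL 2 to 4, with -4.57 on old_AL 1. It rose by 0.43 ± 0.09 (adjusted p = 0.0462, 0 of 11 leave-outs), and with old_AL 1 the difference was -0.14. Mrgprd, a receptor of non-peptidergic skin afferents, fell by 0.42 ± 0.09 (adjusted p = 0.0463, 1 of 11 leave-outs, -1.004 on 12 arrays). Trpv1, Scn10a, P2rx3 and Calca differed by 0.09 or less in size and did not pass. None of 12 sodium or 16 calcium channel genes passed, and of 36 potassium channel genes Kcnv1 alone, a modulatory subunit, fell by 0.29 ± 0.05 (adjusted p = 0.0278, 7 of 11 leave-outs). Of 24 transmitter receptor genes, the GABA receptor subunit Gabrg1 fell by 0.35 ± 0.07 (adjusted p = 0.0406, 1 of 11 leave-outs). Outside the lists, Tacr3, the neurokinin receptor, fell by 0.99 ± 0.19 (adjusted p = 0.0321, 5 of 11 leave-outs, -0.06 with adjusted p = 0.534 after normexp) and Htr1b, a serotonin receptor, by 0.76 ± 0.16 (adjusted p = 0.0398, 2 of 11 leave-outs, -1.47 with adjusted p = 0.0616 after quantile normalization, -0.20 with adjusted p = 0.0977 after normexp), both at dim levels, with Tacr3 well above background on 3 of 4 young and 1 of 3 old arrays.

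Genes of nerve injury and regeneration were higher for 21 of 28, with a median of 0.137, but on 12 arrays for 14 of 28, with a median of 0. Relative to the young mean, the list was highest on young_AL 1, at 0.37. It was at -0.14 to -0.105 on the other young arrays and 0.096 to 0.156 on old_AL 2 to 4. With 1 array left out, the median difference ran from 0.061 to 0.352. The 4 that rose were Reg3a, Reg3b, Cthrc1 and Anxa1, an inhibitor of leukocyte recruitment that rose by 0.50 ± 0.07 (adjusted p = 0.0149, 10 of 11 leave-outs, 0.78 on 12 arrays). Atf3, Gap43, Gal, Npy and Sox11, which injured sensory neurons are known to induce, did not pass, with differences of 0.21, -0.14, -0.68, -0.69 and 0.40. None of 21 immediate early genes passed, and their median was -0.086.

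Satellite glial genes had 2 falls of 24, against 1.25% of all genes, and a median of -0.083. Ednrb, the endothelin receptor of satellite cells, fell by 0.30 ± 0.06 (adjusted p = 0.0365, 1 of 11 leave-outs, -0.09 on 12 arrays), and Hmgcs1 is described with the sterol genes. Scrg1, a small secreted protein of glia, fell by 0.79 ± 0.12 (adjusted p = 0.0188, 9 of 11 leave-outs), from -1.87 to -1.43 in young ganglia to -2.49 to -2.27. Myelin genes were lower for 18 of 21, against 8498 of all 20849 genes, with a median of -0.208, and none passed. The list's median relative to the young mean was -0.38, -0.04 and -0.20 on old_AL 2 to 4, so old_AL 3 lay within the young range of -0.09 to 0.08. Pmp22, a myelin protein of the peripheral nerve, differed by -0.29 ± 0.07 (adjusted p = 0.058), and Fa2h, which hydroxylates myelin fatty acids, by -0.44 ± 0.11 (adjusted p = 0.0618). Of 14 genes of non-myelinating Schwann cells, Artn, a ligand of the RET receptor complex, rose by 0.71 ± 0.14 (adjusted p = 0.0364, 2 of 11 leave-outs, 0.445 on 12 arrays).

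Lipid synthesis held several falls that passed in every leave-out. Of 33 fatty acid genes, 6 fell and none rose, against 1.25% and 2% of all genes, with a median of -0.076 (-0.129 on 12 arrays). Elovl6, which extends palmitate, read 2.57, 2.62, 2.55 and 2.50 in young ganglia and 2.01, 2.08 and 2.17 on old_AL 2 to 4, with 2.50 on old_AL 1. It fell by 0.47 ± 0.05 (adjusted p = 0.00422, 11 of 11 leave-outs), a second probe gave -0.50, and the 12-array difference was -0.37. Scd, the desaturase that makes oleate, read 1.862 to 2.002 in young ganglia and 1.56, 1.44 and 1.46 on old_AL 2 to 4, with 1.80 on old_AL 1, which was also below every young array. It fell by 0.44 ± 0.05 (adjusted p = 0.0081, 11 of 11 leave-outs). Acss3, a mitochondrial synthetase for short acyl-CoA, fell by 0.86 ± 0.11 (adjusted p = 0.0133, 11 of 11 leave-outs, -1.55 on 12 arrays, -1.39 with adjusted p = 0.0515 after quantile normalization) and Me1, which supplies NADPH for synthesis, by 0.21 ± 0.04 (adjusted p = 0.0278, 5 of 11 leave-outs), but Me1 differed by 0.22 on 12 arrays. The other falls were Fads2 at 0.28 and Fasn at 0.18 in size. On old_CR, Elovl6 read 2.17 to 2.25 and Scd 1.63 to 1.76, below all young arrays.

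Sterol genes fell for 3 and rose for 2 of 37, with a median of -0.106. Stard4, a cholesterol carrier, fell by 0.38 ± 0.04 (adjusted p = 0.00563, 11 of 11 leave-outs, -0.15 on 12 arrays), from 0.23 to 0.33 in young ganglia to -0.16 to -0.07, although a second, dimmer probe gave 0.09 and old_AL 1 read 0.81. Hmgcs1, the first committed step, fell by 0.21 ± 0.04 (adjusted p = 0.0257, 7 of 11 leave-outs), with 0.04 on 12 arrays, and Idi1 fell by 0.27. Nr1h3, the oxysterol receptor LXR alpha, rose by 0.37 ± 0.05 (adjusted p = 0.0174, 9 of 11 leave-outs). It was also higher on old_AL 1, at -0.35 against -0.95 to -0.86 in young ganglia.

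Ribosomal protein genes were higher for all 49 measured, by a median of 0.131, and for 40 of them every old array was above every young one, as for 11.9% of all genes. Only 4 rose: Rps14 by 0.26 ± 0.05 (adjusted p = 0.0294, 5 of 11 leave-outs, 0.15 with adjusted p = 0.0646 after median centring), Rpl3 by 0.19 ± 0.04 (adjusted p = 0.0339, 0.125 with adjusted p = 0.0801 after quantile normalization, 0.09 with adjusted p = 0.201 after median centring), Rplp1 by 0.21 ± 0.05 (adjusted p = 0.0492, 0.33 on 12 arrays, 0.14 with adjusted p = 0.0828 after quantile normalization, 0.11 with adjusted p = 0.2 after median centring) and Rpl12 by 0.14 ± 0.03 (adjusted p = 0.0488, 0.09 on 12 arrays, 0.06 with adjusted p = 0.239 after quantile normalization, 0.03 with adjusted p = 0.566 after median centring). The size of this shift depended on the scaling. The list's median was 0.057 after quantile normalization with 42 genes above 0, 0.030 after median centring with 37 above 0, and 0.269 on 12 arrays, and 1 and 0 of the 4 passed after the first and second of these. Relative to the median of all genes, it was 0.097, 0.108, 0.097 and 0.048 after 75th percentile scaling, quantile normalization, median centring and normexp, with 45, 47, 45 and 43 of 49 above that median. Probes of Rps14 disagreed, with 3.54 (adjusted p = 0.487) for the other.

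**Figure D5:**
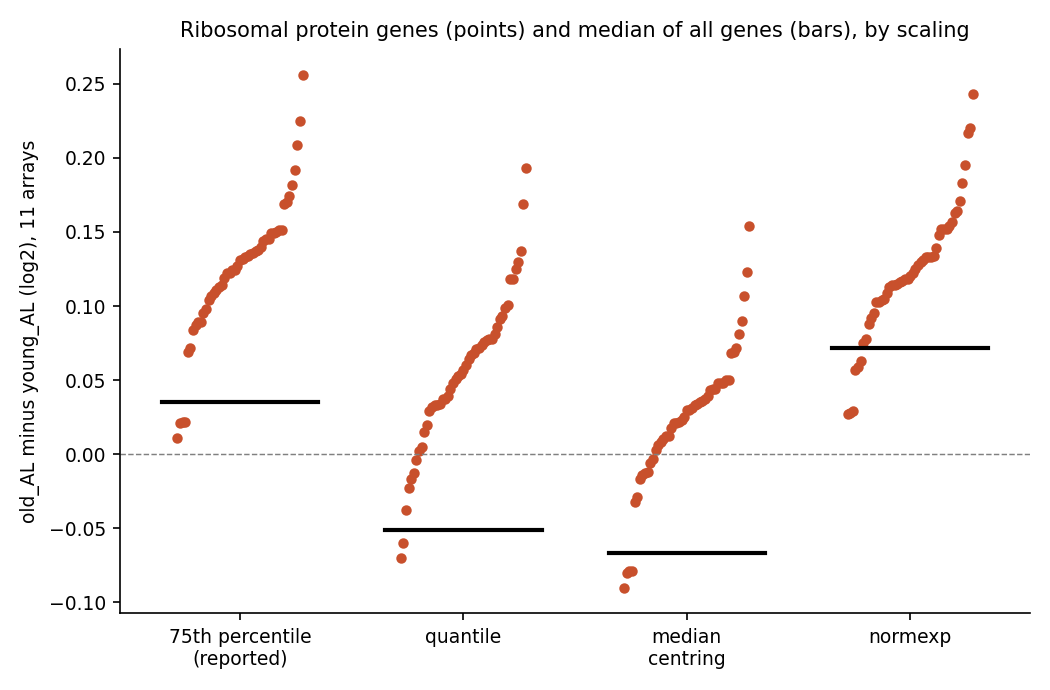
Differences of the 49 ribosomal protein genes (log2, old minus young, 11 arrays) under the 4 scalings, each drawn with its own median of all genes as a line. The list lies above the line in each, for 43 to 47 of the 49 genes, while its distance from 0 changes with the scaling.

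None of 28 senescence genes passed, with a median of 0.135 (-0.019 on 12 arrays). Cdkn2a and Cdkn1a each differed by 0.14. Of 23 cell division genes Bub1 fell by 0.28 (adjusted p = 0.0336), of 32 heat shock genes Bag3 fell by 0.19 (adjusted p = 0.0367), and of 35 lysosome genes Ctsa rose by 0.16 (adjusted p = 0.0358). Bag3 and Ctsa had the opposite sign on 12 arrays, at 0.19 and -0.04, and Ctsa did not pass after quantile normalization or median centring (adjusted p = 0.101 and 0.336). Among 17 clock genes Bhlhe40, a repressor, rose by 0.42 ± 0.06 (adjusted p = 0.017, 9 of 11 leave-outs, 0.09 on 12 arrays, 0.24 with adjusted p = 0.0882 after quantile normalization). No call was made among 27 genes of the unfolded protein response, 45 of autophagy and the proteasome, 34 of insulin, IGF and sirtuin signalling, 26 of glucocorticoid and fasting responses, 20 of myelin lipids, 16 aquaporins and carbonic anhydrases, 15 central glial genes and 15 of the meninges and perineurium. The medians of these lists lay between -0.030 and 0.202, and between -0.306 and 0.144 on 12 arrays.

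Several genes outside the lists were among the clearest. Tmem273, a membrane protein, read -6.08, -6.57, -6.56 and -6.52 in young ganglia and -4.88, -4.95 and -5.10 on old_AL 2 to 4, but -7.27 on old_AL 1, and rose by 1.46 ± 0.14 (adjusted p = 0.00422, 0.88 on 12 arrays, adjusted p = 0.0531 after quantile normalization). Mest, an imprinted gene of the hydrolase family that is active in growing tissue, read 1.101 to 1.161 in young ganglia and 0.645, 0.653 and 0.735 on old_AL 2 to 4, with 1.45 on old_AL 1, and fell by 0.46 ± 0.05 (adjusted p = 0.0104, -0.265 on 12 arrays). Both passed in all 11 leave-outs and in the compared groups alone. Igflr1 fell by 0.42 ± 0.04 (adjusted p = 0.00334) and had all 4 old arrays below all young ones, at -2.275 to -2.105 against -1.86 to -1.75. Slc44a4, Ninj2, Slc22a4 and Pgap1 rose by 0.89, 0.92, 0.53 and 0.50, and Dnajb3, Ccdc91, Slc26a1 and Vhl fell by 0.41, 0.38, 0.34 and 0.24, each in 11 of 11 leave-outs. On 12 arrays Slc44a4, Slc22a4 and Slc26a1 gave 0.46, 0.335 and -0.16, and Vhl 0.19. A second probe of Dnajb3 gave -0.28. Pnlip, a pancreatic lipase gene, fell by 0.78 (adjusted p = 0.0135, 11 of 11 leave-outs, -1.22 on 12 arrays), from -3.85 to -3.49 in young ganglia to -4.60 to -4.27, with -6.14 on old_AL 1.

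Genes found at the floor in young ganglia made up part of the largest rises. A gene well above background on no young array entered the test only through the old groups, so a difference in this direction was built into its choice. The adjusted p of such a gene is given as a description. Adam34, a membrane metalloprotease known from testis, was well above background on no young array and on old_AL 2 to 4, at least 6.89-fold higher (adjusted p = 0.0188, 9 of 11 leave-outs), and its value on old_AL 1 was missing. It read -7.04 to -4.78 on old_CR. Mageb4, also well above background on no young array, read 7.14-fold higher (adjusted p = 0.0413, 2 of 11 leave-outs, a difference of 0.77 after normexp). Its young readings lay above the floor used for a bound, so this is a plain ratio. Other large rises were of genes above the floor on some or all young arrays. Sbsn, a protein of keratinising epithelium, was well above background on all 4 young arrays. It rose by 2.56 ± 0.46 (adjusted p = 0.0294, 7 of 11 leave-outs), with -4.15, -4.28 and -2.35 on old_AL 2 to 4 against -6.58 to -5.39. Klk13, a kallikrein protease well above background on 1 young array, rose by 2.31 (adjusted p = 0.038) but passed in 0 of the leave-outs where it could be tested. Aldh1a3, which makes retinoic acid, rose by 2.26 ± 0.47 (adjusted p = 0.0406, 2 of 11 leave-outs, adjusted p = 0.0793 after quantile normalization), well above background on 2 young arrays. Of the 5 falls over 2-fold, 1 was at a young level under -6. This gene, Hmgb1-ps2, was well above background on no old array and read 2.66-fold lower, again a plain ratio (adjusted p = 0.0419, 1 of 11 leave-outs). Its difference was -0.79 on 12 arrays and -0.33 after normexp.

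With all 12 arrays, the 4 genes that passed were Rnf186 and 3 transcripts that matched no gene symbol. Rnf186, a ubiquitin ligase of the endoplasmic reticulum, was well above background on no young or old_CR array and read -6.52, -6.67 and -5.87 on old_AL 2 to 4, at least 6.46-fold higher (adjusted p = 0.00112). It entered the 12-array test only through the group where it is high: all 4 old_AL arrays counted as well above background, although the value on old_AL 1 was then dropped as an outlier. On the 11 arrays it was above background on too few and was not tested, so its p is given as a description. ENSRNOT00000042670 read -9.23 to -8.82 on the young arrays, none well above background, and -5.59, -6.21 and -5.99 on old_AL 2 to 4, with -6.71 on old_AL 1. All old arrays stood apart from all young ones. It was at least 7.53-fold higher on 11 arrays (adjusted p = 0.000206, 11 of 11 leave-outs) and at least 6.58-fold on 12 (adjusted p = 0.00101). This transcript too entered both tests only through the old groups, where it is high, so each p is given as a description. The old_CR arrays read -6.56 to -6.03.

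The transcript XM_001058977 read -3.42 to -3.03 in young ganglia and -4.57, -4.96 and -4.65 on old_AL 2 to 4, with -5.05 on old_AL 1, so that every old array was below every young one. It fell by 1.54 ± 0.11 (adjusted p = 0.00126) on 11 arrays and by 1.62 (adjusted p = 0.00112) on 12. XM_221343 fell by 1.10 ± 0.09 (adjusted p = 0.00213) on 11 arrays and by 1.25 (adjusted p = 0.0345) on 12. Both passed in all 11 leave-outs and read below every young array on all 4 old_CR arrays as well, at -4.59 to -4.42 and -3.89 to -3.75. Of the 676 genes, 255 had no symbol in RefSeq and keep the identifier that the array files give.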

How the data were processed

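Each array was a 1-colour Agilent rat array. The authors deposited a linear intensity for each spot from Agilent Feature Extraction 10.7 (per the file headers and per the submitters' processing notes), with background subtracted and no scaling between arrays. Control spots were left out (4259 of them, with 58717 gene probe spots), values flagged as outliers were dropped, saturated ones stayed, and spots of a probe were averaged on the log2 scale. Log2 intensity minus the 75th percentile of the array was analysed. A probe had to be well above background on at least 4 arrays, and the brightest probe stood for its gene. RefSeq (GRCr8) gave symbols by accession for 17998 of 30367 probes, 15154 symbols in all, and names in the files can be old.

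Groups were compared with limma 3.58.1 in R 4.3.3, with a mean per group over 11 arrays of 3 groups, a shared spread and Benjamini-Hochberg adjustment over all genes. The labels give separate samples, and the number of arrays limits the precision. An "at least" fold divides the mean of the bright group by a floor: for each dim array this is the lowest signal of any probe well above background there, or the probe's own value if greater. Such a fold holds on the reported scale only, and normexp gave smaller differences for Adam34, Mcpt8l2 and ENSRNOT00000042670. The fit was tested on simulated data with known changes. Members and the 58 lists were chosen with earlier results of these data known. Named genes were the 12 largest differences and the 10 smallest p in each direction with a symbol, up to 4 called members of each list (or the member with the smallest p where none was called), genes called on 12 arrays, and up to 4 called without a symbol in each direction. Other members are named where they bound a range or are well-known markers, chosen after their values were seen. Alternatives were all 12 arrays, 3 other scalings or background corrections, 2 filters, 2 gene summaries, array weights, a trend of variance with intensity, only the 2 groups compared, the replicate number as a block term, and omission of every array in turn. Promoter sequences are from RefSeq. A few named genes are not reported here.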

Additional observations from a re-analysis of the deposited data

Results flagged for a closer look

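By their gap to the rest of the group, quality values of 2 arrays stood out. The 75th percentile of intensity of old_AL 1 was 7662, and 4369 of its spots had uneven signal. The array young_AL 4 had 215 uneven spots, against 3 to 8 on the other young arrays, and correlated with the remaining arrays at a median of 0.985, against 0.993 on those. The array old_AL 4 had 207 uneven spots and a median correlation of 0.971 but was not set apart by this measure in a group that holds old_AL 1. Chance sets an array apart in about 1 in 20 groups of 4 by the measure used here.

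Of the 132 named genes, 50 had 1 array far from the other 3 in old_AL when all 4 were taken, and in all 50 that array was old_AL 1. Among the young arrays 10 of the 132 had such an array, from 3 different arrays. On young_AL 1, Tmem273 read -6.08 against -6.57 to -6.52, Dnajb3 0.165 against 0.306 to 0.316, Me1 3.34 against 3.43 to 3.45, Blnk -4.84 against -5.00 to -4.98, and Des -3.39 against -3.27 to -3.24. On young_AL 2, Cd300a read -4.38 against -4.24 to -4.23, Fcgr2a 1.58 against 1.68 to 1.69, and Rpl12 4.21 against 4.18. On young_AL 3, ENSRNOT00000042670 read -8.82 against -9.23 to -9.16 and Nefl 5.603 against 5.648 to 5.651. In each of the 10, the young array that stood apart was still on the same side of old_AL 2 to 4 as the rest of its group.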

How the results depend on the processing

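The 676 calls became 4 with old_AL 1 kept, 1067 after quantile normalization, 2968 after median centring, 3826 after normexp, 25 with the compared groups alone and 1089 with an intensity trend, and 70 to 402 with 1 array left out. The number of genes called with age over 2-fold, 81, became 4, 131 after median centring, 139 with no filter on dim probes and 10 with the compared groups alone, and 20 to 94 with 1 array left out. The cause of these changes was not tested. The median residual SD was 0.363 with old_AL 1 and 0.102 without it. The leave-outs and the fit of the compared groups alone used fewer arrays. The probe summaries, the stricter filter and array weights changed neither count by over 1.5 times.

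With the replicate number as a block, 20 genes passed and 9 of them were over 2-fold. The deviations of same-numbered old and young arrays correlated at -0.088, 0.003 and -0.049, so the samples were not treated as pairs, and no old array correlated best with its own number. The number is also the column of an array on its slide.

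Of the 132 named genes, 18 changed sign with old_AL 1 kept: Vhl 0.187, Hmgcs1 0.038, Vamp1 0.037, Me1 0.222, Car1 -0.044, Pvalb 0.093, Ctsa -0.042, Bag3 0.187, Agrn 0.251, Fech -0.008, Des -0.142, Trpa1 -0.140, Ptger4 -0.115, Nr4a2 0.062, Psma3 0.119, Pmp22 0.051, Eif2ak3 -0.071 and Cycs 0.147. Ptger4 was -0.079 after quantile normalization and Or5ac23b 0.203 after normexp. With old_AL 1 kept, 17 of the named genes stayed on their side of the threshold with their sign. Signal over background limits dim genes: 12 genes that passed had no array well above background in 1 group. Their folds rest on a floor or on readings not well above background.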
